A study of Mus musculus with 4 samples.

Results

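The genes described here are the ligands and receptors of axon guidance, picked by symbol: the semaphorins (Sema3 to Sema7), plexins (Plxn), neuropilins (Nrp), ephrins (Efn), Eph receptors, Slit ligands, Robo receptors, netrins (Ntn) and Unc5 receptors. They number 67 of the 54842 genes counted, and were chosen with earlier results of these data known. Ntn3, whose symbol also fits, matched no identifier in the table and was not analysed here. Mouse embryonic fibroblasts (MEF cells) without treatment were compared by sequencing of total RNA depleted of ribosomal RNA, with 2 wt libraries and 2 libraries from Top2β-null cells. Top2β is the DNA topoisomerase expressed throughout the cell cycle, which passes a DNA strand pair through a transient break. The Top2β-null cells were derived from null mice and came to the study from other laboratories, while the age of the embryos and any immortalization are not given in the sources used here, so the genotype and the origin of the cells cannot be told apart. The labels call the libraries replicates without saying whether they are separate cultures, so the p-values below measure the spread between these libraries, which may be technical.

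Guidance cues steer growing axons and migrating cells by attraction or repulsion. Secreted or membrane-bound ligands bind receptors at the cell surface, and the receptors act on small GTPases that assemble or collapse the actin cytoskeleton. Fibroblasts, endothelial cells and other cells outside the nervous system use the same families in migration, cell sorting and vessel growth. Class 3 semaphorins bind neuropilins, which signal through plexins, Slit proteins bind Robo receptors, netrins bind Unc5 receptors and the receptors Dcc and neogenin, and ephrins bind Eph receptors in cell contacts.

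The labels were checked on Top2b itself, whose level was 18259 and 18465 normalized counts in wt replicates 1 and 2 and 3879 and 3789 in Top2β-null replicates 1 and 2, a log2 fold change of -2.26 ± 0.0271 (SE). A normalized count is a read count scaled to a common library size. Total counts per library ranged from 133116830 to 149647278. Of 10 fibroblast markers 9 passed the low-count filter, and their summed level was 1300500 and 1325200 in wt and 885720 and 890680 in Top2β-null. Col1a1 (287590 and 298040 against 112310 and 112510), Vim (364750 and 367620 against 203170 and 206250), Fn1 (428500 and 437230 against 338100 and 337860) and Col3a1 were lower. Dcn, Pdgfra, Pdgfrb and Thy1 were higher, Col1a2 was nearly level, and Lum was at most at 3.96 normalized counts in any library. Of the markers of other cells that use guidance genes, 8 endothelial genes, 6 of them tested, summed to 236 and 257 in wt against 408 and 387 in Top2β-null. Kdr (71.7 and 68.6 against 203 and 205) and Esam (62.6 and 81.1 against 145 and 125) were higher and Tek (43.4 and 34.8 against 9.32 and 3.96) lower, while Cdh5 stayed at or under 32.3 and Pecam1 at or under 29.9 normalized counts, Tie1 at or under 2.02 and Emcn at or under 0.99. The summed level of 8 neuronal markers, 4 of them tested, was 5666 and 5621 against 7637 and 7981, nearly all from Map2 and Tubb3. Of these, Map2 was lower in Top2β-null cells (3514 and 3442 against 3048 and 3088) and Tubb3 higher (2022 and 2007 against 4322 and 4598). Rbfox3 was at most at 1.93 and Elavl4 at most at 2.97. Schwann cell and neural crest markers summed to 344 and 375 against 205 and 146, with 4 of 7 tested and Foxd3 at 0. Epithelial markers, 3 of 7 tested, summed to 83.8 and 92.7 against 23.8 and 26.7, and leukocyte markers, 4 of 8 tested, to 2420 and 2501 against 1351 and 1356, with Tyrobp at 0. The fall of the leukocyte sum was that of Cd68 (1641 and 1688 against 302 and 289), while Csf1r (740 and 767 against 962 and 978), Fcer1g (30.3 and 33.8 against 53.9 and 53.5) and Itgam (1.01 and 0.97 against 28.0 and 28.7) were higher in Top2β-null cells. The part of these shifts in the results below was not tested, and in bulk RNA fewer cells of a type and less RNA per cell cannot be told apart.

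Part of the guidance genes differed in level between Top2β-null and wt MEF cells. The ligands Sema3e, Slit3 and Slit2 and the receptors Plxnb1, Robo1 and Nrp1 rose, while the ligands Sema4f, Sema4d and Efnb3 and the receptor Epha8 fell. Of the 67 genes, 58 reached 10 counts in no fewer than 2 libraries and were tested, and 46 of these had a mean above 100 normalized counts. A gene was called when its adjusted p (edgeR's quasi-likelihood test, Benjamini-Hochberg over 26566 features) was below 0.05, its absolute log2 fold change above 1 and its mean normalized count above 100. By these cut-offs 12 guidance genes were called higher in Top2β-null cells, 20.7% of those tested, against 5.27% of all features called higher. The 9 called lower were 15.5% of those tested, against 4.97% of all features called lower. The 12 include Sema3e, which reached the count filter through Top2β-null cells alone, and the 9 include Sema4f, which reached it through wt alone. Both had to differ to be tested. Among genes with a mean above 100, 45.7% of the guidance genes were called in either direction, against 16.2% of all such genes. No test of these shares was made. Of the 10 guidance genes with the highest mean level per kb of exon, Nrp1 and Ephb4 were called and the others were not. The adjusted p of the 21 called genes ranged from 4.71e-21 for Nrp1 to 1.39e-07 for Robo2.

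An adjusted p below 0.05 alone was common in this comparison. It was met by 28 guidance genes with a higher level in Top2β-null cells, 48.3% of those tested, where 32.5% of all features met it in that direction. With a lower level it was met by 24, or 41.4%, where again 32.5% of all features met it. In 26 of these 52 genes the log2 fold change lay between -1 and 1, from 0.20 (Plxna2) to 0.97 (Epha1) in those with a higher level and from -0.08 (Efnb2) to -0.92 (Sema4a) in those with a lower one. Only Epha10, Plxna4, Plxnb2, Plxnb3, Sema4g and Slit1 among the 58 tested did not meet it. The median log2 fold change over the 58 was 0.216, beside 0.00268 over all features tested. Sema3e, Sema3d, Epha3 and Sema6d passed the low-count filter through Top2β-null cells alone, and Sema4f through wt cells alone. These genes had to differ to be tested, and they are part of this median and of the 28 and 24 above. The median dropped to 0.00294 without Top2β-null replicate 1, to 0.0282 without Top2β-null replicate 2 and to 0.0912 with at least 100 counts required in every library. Ligands gave 5 higher (15.6%) and 7 lower (21.9%) calls among 32 tested, and receptors 7 higher (26.9%) and 2 lower (7.69%) among 26. Over all features 5.27% were called higher and 4.97% lower. The ligand calls include Sema3e and Sema4f, which had to differ to be tested, and ligands and receptors were not compared by a test.

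**Figure D1:**
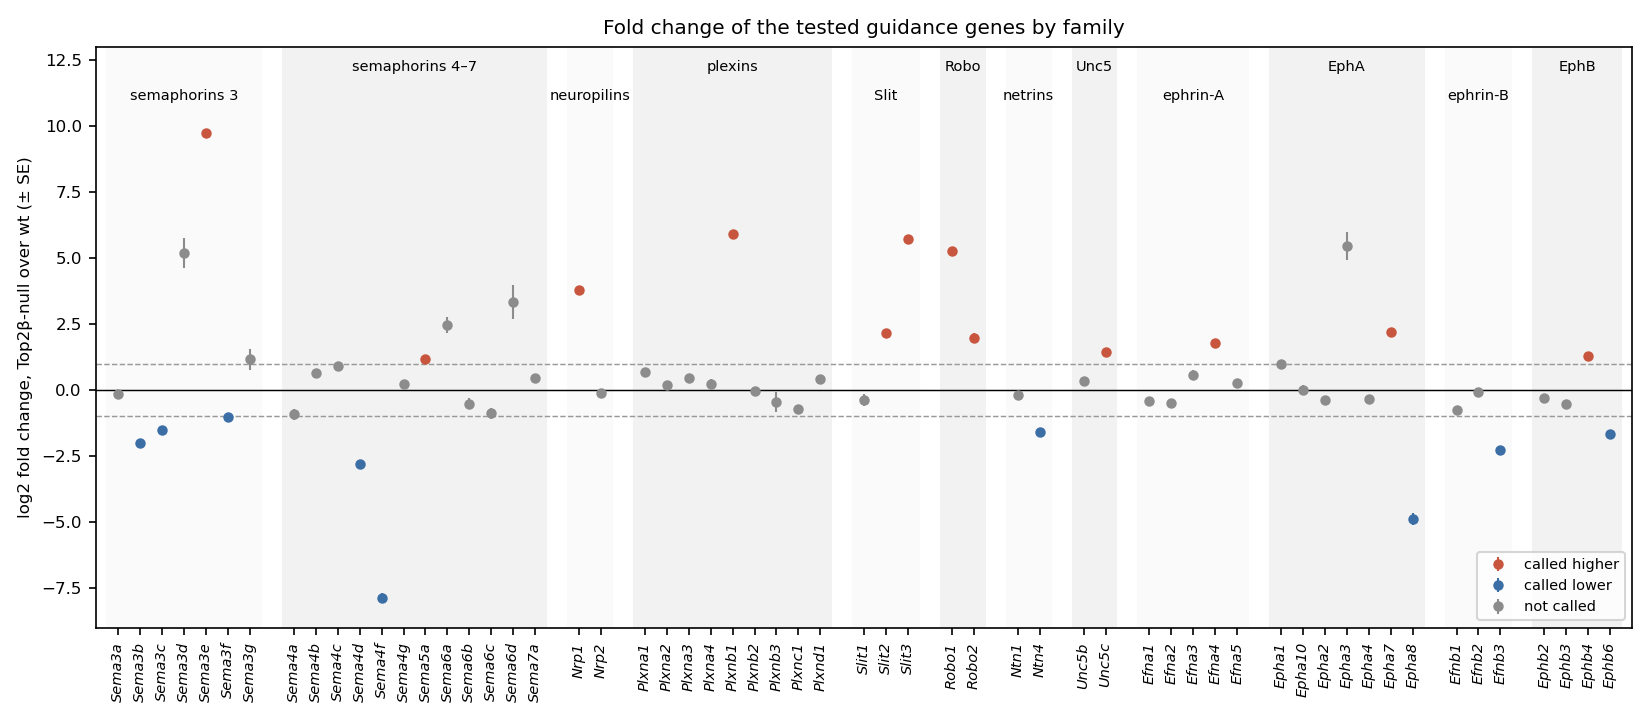
The log2 fold change (Top2β-null over wt, y axis) with its standard error is drawn for each of the 58 tested guidance genes, grouped by family along the x axis, with the 12 genes called higher in red, the 9 called lower in blue, the others in grey, and dashed lines at 1 and -1. Called genes stand in every family, often beside uncalled genes near 0, and the values run from -7.86 (Sema4f) to 9.75 (Sema3e).

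The promoters of the 4 called genes with the largest change are printed here, since their levels lay farthest apart between the genotypes. The windows come from RefSeq (build GRCm38.p6) and run from 250 bases before the annotated start to 50 after it, 5′ to 3′ on the strand of the gene. Capitals mark each CG dinucleotide, the site of DNA methylation. Sema3e (chr5:14025026-14025325, plus strand) holds 11 CG, Plxnb1 (chr9:109095186-109095485, plus strand) 36, Slit3 (chr11:35121206-35121505, plus strand) 41 and Sema4f (chr6:82939720-82940019, minus strand) 7.
Sema3e: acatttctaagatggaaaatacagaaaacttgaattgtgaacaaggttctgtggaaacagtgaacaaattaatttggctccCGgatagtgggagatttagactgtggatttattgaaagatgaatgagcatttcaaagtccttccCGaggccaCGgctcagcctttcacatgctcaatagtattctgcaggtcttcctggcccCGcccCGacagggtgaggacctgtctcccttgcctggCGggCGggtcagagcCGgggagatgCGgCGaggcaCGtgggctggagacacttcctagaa
Plxnb1: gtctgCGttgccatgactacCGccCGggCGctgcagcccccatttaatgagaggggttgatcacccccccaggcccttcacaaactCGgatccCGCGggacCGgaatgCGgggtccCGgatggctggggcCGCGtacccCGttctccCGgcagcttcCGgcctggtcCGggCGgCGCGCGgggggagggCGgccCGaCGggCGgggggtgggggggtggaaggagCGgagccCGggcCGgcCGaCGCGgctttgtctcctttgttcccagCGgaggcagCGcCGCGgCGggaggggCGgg
Slit3: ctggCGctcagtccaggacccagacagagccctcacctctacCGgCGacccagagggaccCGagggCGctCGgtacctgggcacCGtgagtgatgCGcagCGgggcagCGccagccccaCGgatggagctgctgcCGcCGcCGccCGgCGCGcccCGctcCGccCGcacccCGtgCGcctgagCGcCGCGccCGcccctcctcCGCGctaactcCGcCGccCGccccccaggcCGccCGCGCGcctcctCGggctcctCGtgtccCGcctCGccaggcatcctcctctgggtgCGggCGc
Sema4f: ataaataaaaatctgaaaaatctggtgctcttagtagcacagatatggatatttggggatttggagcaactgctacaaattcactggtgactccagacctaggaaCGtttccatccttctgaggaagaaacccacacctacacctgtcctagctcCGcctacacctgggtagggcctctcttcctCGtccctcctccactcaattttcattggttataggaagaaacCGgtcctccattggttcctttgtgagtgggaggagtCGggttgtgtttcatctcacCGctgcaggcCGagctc

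These promoters differed in their CG content. The observed to expected ratio of CG was 0.58 for Sema3e and 0.40 for Sema4f, and 0.87 for Plxnb1 and 0.93 for Slit3, so the largest rise and the largest fall both belonged to promoters under 0.6 and the rises of Plxnb1 and Slit3 to promoters above it. Over the 74 RefSeq windows found for 58 of the 67 genes, 58.1% reached 0.6, against 36.1% of all 32851 windows. The share was 53.3% of 15 windows of 12 genes called higher, 4 of 8 windows of 6 genes called lower and 60.5% of 43 windows of 32 genes tested and not called. Windows of the same gene were counted separately. Those of Sema4d and Robo2 were all under 0.6 and those of Epha7 above it. Efnb3, Sema3b and Sema3f, called lower, had no window. The letters TATAAA on either strand stood in 2.70% of the guidance windows and 13.6% of all windows, and in none of the 4 printed. These matches are descriptions of the sequence.

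Class 3 semaphorins, secreted ligands that repel axons and act on vessels, differed in both directions between the genotypes. Sema3e (ENSMUSG00000063531, chr5:14025276-14256689), the ligand that binds Plxnd1 without a neuropilin, was at 9.08 and 2.90 normalized counts in wt and at 5323 and 5059 in Top2β-null cells. It was thus nearly absent from wt cells, and its 12 reads in wt against 10248 in Top2β-null gave an 876-fold difference (exact 95% interval 501 to 1700, counting error only). The fitted log2 fold change was 9.75 ± 0.117 (SE), but Sema3e passed the low-count filter through Top2β-null cells alone, so it had to differ to be tested, and it could not be fitted without either Top2β-null library. Sema3c fell, from 3424 and 3351 to 1233 and 1130 (log2 fold change -1.52 ± 0.0489). Sema3b, encoded 72.3 kb from Sema3f and often lost in tumours, fell from 421 and 433 to 97.4 and 114 (-2.01 ± 0.116). Sema3f, the ligand with a preference for Nrp2, was at 2369 and 2434 in wt and 1164 and 1206 in Top2β-null, and its log2 fold change of -1.02 ± 0.0478 lay so near the cut-off that the call was lost with TMM factors over genes alone, where it came to the cut-off itself, with scaling to the total count (-0.949) and without Top2β-null replicate 1 (-0.954). In all 3 of these genes both Top2β-null libraries lay below both wt libraries, but the genotypes did not overlap in 80.5% of all features tested.

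Sema3a, the prototype repellent and the Nrp1 ligand, barely moved. Its levels were 20131 and 20514 in wt and 18504 and 18513 in Top2β-null, a log2 fold change of -0.13 ± 0.0244. Sema3d and Sema3g stayed under a mean of 100. Sema3d had 2 reads in wt and 81 in Top2β-null, a 41.5-fold difference with an interval of 11.1 to 349, and Sema3g had 20 and 44 reads, 2.26-fold apart (1.30 to 4.04). Per kb of exon, the scale on which genes can be compared, Sema3a held 58.8% ± 0.255 (SD, n = 2) of the class in wt and 57.6% ± 0.565 in Top2β-null cells. Sema3e went from 0.026% ± 0.0191 to 24.1% ± 0.642, while Sema3c went from 19.0% ± 0.455 to 7.13% ± 0.37 and Sema3f from 18.5% ± 0.196 to 9.84% ± 0.338. The summed level of the class per kb was 0.930 of that in wt, so its makeup differed more than its total.

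Membrane-bound semaphorins held the largest fall among the guidance genes. Sema4f (ENSMUSG00000000627, chr6:82911885-82939769), a transmembrane semaphorin found at synapses, was at 1127 and 1054 normalized counts in wt and at 3.11 and 5.94 in Top2β-null cells. The 2208 wt reads against 9 gave a level 239-fold lower (126 to 524), and the gene passed the low-count filter through wt alone and could not be fitted without either wt library. Sema4d, the ligand of Plxnb1 first known from lymphocytes, fell from 558 and 569 to 75.6 and 87.2 (log2 fold change -2.79 ± 0.11). In both genes the groups were far apart, with the replicates close together in wt.

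Sema5a, a transmembrane semaphorin with thrombospondin repeats, rose from 10961 and 11632 to 25513 and 25298 (1.17 ± 0.0288). Its share of the level of semaphorin classes 4 to 7 per kb went from 29.9% ± 1.34 to 43.7% ± 0.443, the largest share of these 13 genes in both genotypes. Sema6a and Sema6d, transmembrane semaphorins that bind A-type plexins, met the p and fold cut-offs below a mean of 100. Sema6a was at 10.1 and 18.4 in wt and 76.6 and 81.2 in Top2β-null, and Sema6d had 3 reads in wt and 32 in Top2β-null, 10.9-fold apart (3.42 to 55.8). Sema6d passed the low-count filter through Top2β-null cells alone, so it had to differ to be tested. Sema5b was not tested, with 18 reads in wt and 0 in Top2β-null, which makes it at least 5.85-fold lower against a floor of 3 counts over the group. Sema7a, the lipid-anchored semaphorin that binds Plxnc1, was at 1208 and 1158 in wt and 1672 and 1615 in Top2β-null (0.47 ± 0.0514), and Plxnc1 at 435 and 398 and at 279 and 233 (-0.70 ± 0.103).

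Neuropilins, the co-receptors of class 3 semaphorins and of VEGF, were reversed in their order of level. Nrp1 (ENSMUSG00000025810, chr8:128358604-128503363) was at 2821 and 2863 normalized counts in wt and at 39384 and 39247 in Top2β-null cells. The replicates of each genotype lay close together and the groups 13.8-fold apart, a log2 fold change of 3.79 ± 0.0283. Nrp2 was at 28348 and 28771 in wt and 26814 and 26701 in Top2β-null, which passed the test at a log2 fold change of only -0.09 ± 0.0246 (adjusted p = 0.00321). Nrp1 therefore held 10.7% of the neuropilin level per kb in wt and 64.0% in Top2β-null cells, and the log2 ratio of Nrp1 to Nrp2 per kb went from -3.05 to 0.83. The summed neuropilin level per kb was 2.32-fold higher in Top2β-null cells.

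Plexins, the signalling receptors of semaphorins, gave 1 call among 9 tested. This was 14.3% of the 7 with a mean above 100, beside 16.2% of all such genes. Plxnb1 (ENSMUSG00000053646, chr9:109095389-109119917), the receptor of Sema4d, rose from 70.7 and 68.6 to 4204 and 4256 normalized counts, 60.8-fold (5.92 ± 0.0687). Ligand and receptor moved in opposite directions, and the log2 ratio of Sema4d to Plxnb1 per kb went from 3.34 ± 0.05 (SD, n = 2) to -5.38 ± 0.13. An antisense gene at the Plxnb1 start, Gm7628, shares 2.70% of its exon sequence and was at 3.03 and 4.83 in wt and 163 and 119 in Top2β-null cells. The strand setting of the counting was not stated, so reads in the shared bases cannot be told apart, and the whole count of Gm7628 was small beside that of Plxnb1.

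The abundant plexins were not called. Plxna1, a partner of neuropilins, had the highest mean level per kb of all 67 genes, 4092 in wt and 6593 in Top2β-null cells, from 36776 and 37326 against 59883 and 59508 normalized counts (0.69 ± 0.0257). It shares 10.7% of its exon sequence with the antisense gene Gm26811, which was at 4303 and 4302 in wt and 6561 and 6552 in Top2β-null cells. Plxnb2 came next with 39377 and 40370 in wt and 38935 and 38985 in Top2β-null (-0.03 ± 0.0257), and did not pass the test (adjusted p = 0.270). Plxnd1, the receptor of Sema3e, was at 4753 and 4924 in wt and 6408 and 6448 in Top2β-null (0.41 ± 0.0296), so the receptor gene was read in both genotypes while its ligand gene was nearly silent in wt. Of the other A-type plexins, Plxna2 and Plxna3 differed by 0.20 and 0.45 on the log2 scale, and Plxna4 by 0.23 without passing the test (adjusted p = 0.267).

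**Figure D2:**
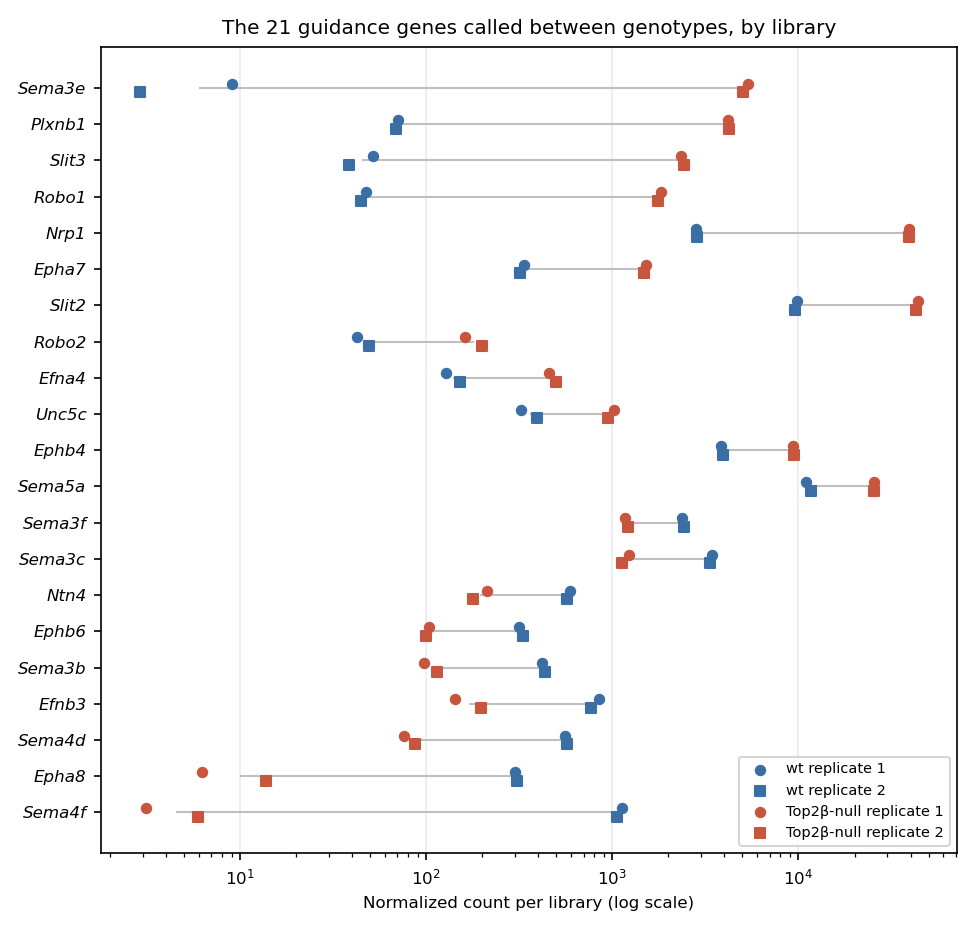
Normalized counts per library (x axis, log scale) of the 21 guidance genes called between genotypes, with wt in blue, Top2β-null in red, circles for replicate 1, squares for replicate 2 and a grey line between the group means. Replicates of a genotype lie close together except in genes near 10 counts or less, and the widest gaps between the genotypes are those of Sema3e and Sema4f.

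Slit ligands and Robo receptors, a repulsive system that also guides endothelial cells, were higher together in Top2β-null cells. Slit2 (ENSMUSG00000031558), the most abundant Slit, rose from 9777 and 9630 to 43915 and 43008 normalized counts (log2 fold change 2.16 ± 0.0265). Slit3 (ENSMUSG00000056427, chr11:35121224-35708507) rose from 51.5 and 38.6 to 2331 and 2431, 52.8-fold (5.72 ± 0.0924). Slit1, the form typical of neural tissue, was low throughout, at 73.7 and 66.6 in wt and 64.2 and 44.6 in Top2β-null, and did not pass the test (adjusted p = 0.186). Slit2 made up 95.2% ± 0.504 (SD, n = 2) of the Slit level per kb in wt and 81.0% ± 0.582 in Top2β-null, where Slit3 took 18.6% ± 0.689.

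Robo1 (ENSMUSG00000022883, chr16:72308306-73046095) rose from 47.4 and 44.4 to 1820 and 1755, 38.9-fold (5.28 ± 0.0895). Robo2 rose from 42.4 and 49.3 to 162 and 200 (1.98 ± 0.191), and its mean was so near 100 that the call was lost without Top2β-null replicate 1 (mean 99.3) or replicate 2 (mean 84.5), although the log2 fold change was then 2.16 and 1.83. The 2 receptors were about equal in wt, with 50.8% ± 3.81 of the Robo level per kb from Robo1, and Robo1 held 90.9% ± 1.61 in Top2β-null cells. Robo3 and Robo4, the latter an endothelial receptor, had at most 1 read in any library and were not tested. Summed per kb, the Robo level was 21.7-fold higher and the Slit level 5.27-fold higher in Top2β-null cells, so the log2 ratio of Slit2 to Robo1 per kb went from 7.10 to 3.98.

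Netrins and their Unc5 receptors, which mediate repulsion, gave 1 call each among 2 tested in each family, where 16.2% of all genes with a mean above 100 were called. Ntn1, the founding netrin, was at 8103 and 8364 in wt and 7119 and 7209 in Top2β-null (-0.20 ± 0.0269). Ntn4, a netrin of basement membranes, fell from 590 and 570 to 212 and 178 (-1.57 ± 0.0954), and Ntn5 had 3 reads in wt and 4 in Top2β-null. Unc5c rose from 325 and 395 to 1020 and 949 (1.45 ± 0.083), with both Top2β-null libraries above both wt libraries. It remained a small part of its family, since Unc5b, the form known from endothelium, held 99.0% ± 0.197 of the Unc5 level per kb in wt and 98.0% ± 0.062 in Top2β-null, at 12497 and 12652 against 15820 and 15892 normalized counts (0.33 ± 0.0243). Unc5a had 14 reads in wt and 9 in Top2β-null, and Unc5d had 0 in all 4 libraries.

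Of the other netrin receptors, Dcc, which mediates attraction, had 2 reads in wt and 0 in Top2β-null cells and was not tested. Neo1 (neogenin), its homologue and also a receptor of repulsive guidance molecules, was at 34362 and 34984 in wt and 30635 and 30370 in Top2β-null (-0.18 ± 0.025). The netrin receptors read in these cells were thus mostly Neo1 and Unc5b, and both differed by less than 1 on the log2 scale.

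Eph receptors, the largest family of receptor tyrosine kinases, and their ephrin ligands gave 3 higher and 3 lower calls. Epha8 (ENSMUSG00000028661, chr4:136929419-136956816) was nearly lost, from 301 and 307 normalized counts in wt to 6.21 and 13.9 in Top2β-null. Its 616 reads in wt against 20 placed it 30-fold lower (19.3 to 49.5). Epha7 rose from 335 and 318 to 1513 and 1487 (2.20 ± 0.0636). Epha3 had 3 reads in wt and 138 in Top2β-null, 47.2-fold apart (15.8 to 232), and passed the low-count filter through Top2β-null cells alone, with a mean below 100. Epha5 was not tested, with 3 reads in wt and 15 in Top2β-null, and Epha6 had no read. The bulk of the EphA level came from Epha2, the EphA receptor typical of epithelial and tumour cells, at 23204 and 23352 in wt and 17613 and 17812 in Top2β-null (-0.39 ± 0.0242). It held 91.2% ± 0.126 of the family per kb in wt and 84.4% ± 0.101 in Top2β-null cells.

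Among EphB receptors, Ephb4, the receptor of veins that binds ephrin-B2, rose from 3851 and 3916 to 9316 and 9501 (1.28 ± 0.0281). Ephb6, which lacks kinase activity, fell from 317 and 332 to 104 and 100.03 (-1.67 ± 0.123). Ephb4 accordingly went from 51.2% ± 0.15 to 78.1% ± 0.15 of the EphB level per kb, and Ephb2 from 27.0% ± 0.278 to 13.7% ± 0.107. Ephb1 had 1 read in each genotype and was not tested.

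The ephrins were led by genes that moved little. Efnb2, which encodes ephrin-B2, was at 32650 and 32389 in wt and 30519 and 31206 in Top2β-null (-0.08 ± 0.0252), and had the highest mean level per kb of all ephrins and Eph receptors. With Ephb4 higher and Efnb2 nearly level, the log2 ratio of Efnb2 to Ephb4 per kb went from 2.5 ± 0.025 to 1.15 ± 0.0025. Efnb3, the ephrin-B of the spinal cord midline, fell from 852 and 771 to 143 and 196 (-2.25 ± 0.109). Among the lipid-anchored ephrin-A ligands, Efna4 rose from 127 and 153 to 456 and 498 (1.77 ± 0.11), while Efna5 held 61.4% ± 0.0261 of the family per kb in wt and 66.2% ± 1.43 in Top2β-null, at 6788 and 6828 against 8266 and 8215 normalized counts (0.28 ± 0.0257). Efna4 shares 10.5% of its exon sequence with the antisense gene 4731419I09Rik, which was at 795 and 869 in wt and 1166 and 1165 in Top2β-null cells. Reads in the shared bases cannot be assigned without the strand setting, and the part of this gene in the Efna4 difference was not tested.

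**Figure D3:**
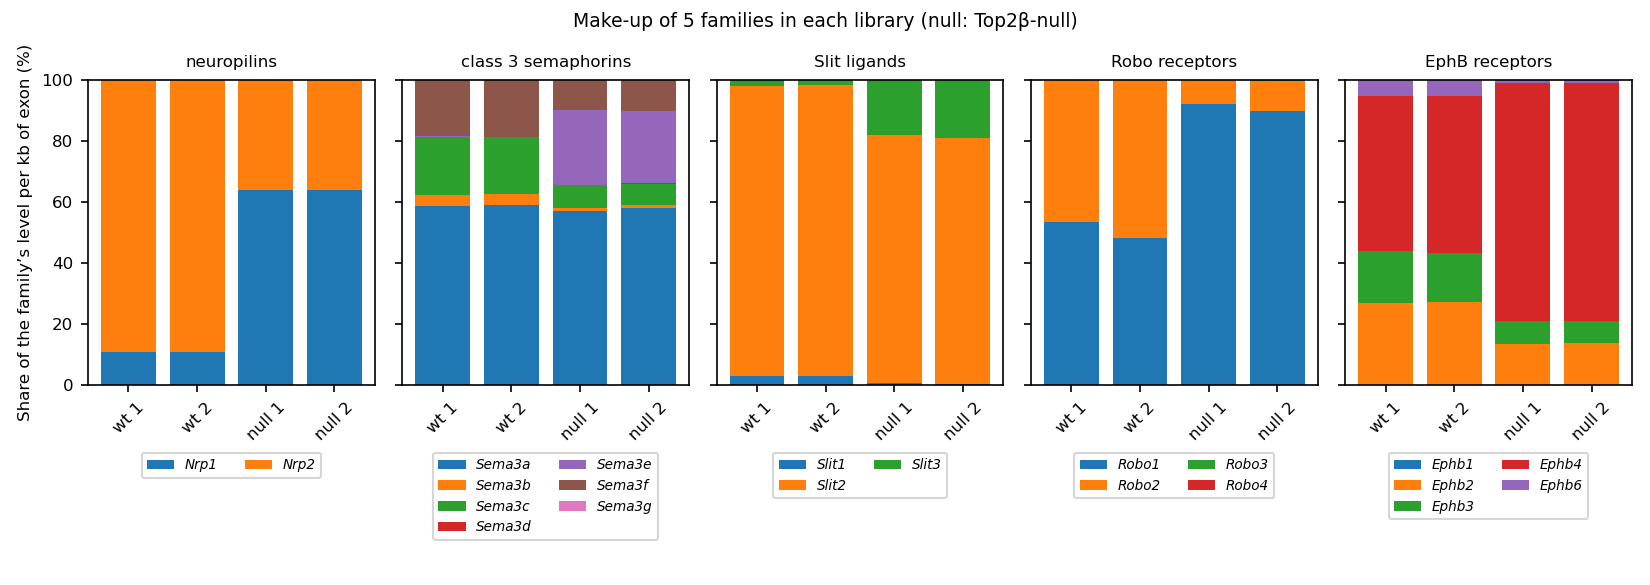
Stacked bars show the share of each gene in its family's summed level per kb of exon (y axis, percent) in each of the 4 libraries for neuropilins, class 3 semaphorins, Slit ligands, Robo receptors and EphB receptors. The 2 libraries of a genotype look alike, and Nrp1, Sema3e, Slit3, Robo1 and Ephb4 take larger shares in the Top2β-null libraries.

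Neighbouring genes of one family did not always move alike. Within 1 Mb on one chromosome lay 11 gene pairs. On chromosome 5, Sema3a sits 423 kb from Sema3e and 536 kb from Sema3d, and differed by -0.13 on the log2 scale between flanking genes at 9.75 and 5.21, both of which passed the low-count filter through Top2β-null cells alone, and Sema3d was not called. Epha8 fell by 4.89 while Ephb2, 93.4 kb away on chromosome 4, differed by -0.31. In the ephrin-A cluster on chromosome 3 the values were 1.77 for Efna4, 0.58 for Efna3, 10.4 kb away, and -0.42 for Efna1, 32.8 kb beyond Efna3. Efna3 shares 14.1% of its exon sequence with the antisense gene Gm15998, which was at 88.8 and 91.8 in wt and 55.9 and 67.3 in Top2β-null cells. Ephb6 (-1.67) and Epha1 (0.97), 738 kb apart on chromosome 6, had opposite signs, and Epha1 shares 6.0% of its exon sequence with Zyx, which was at 29306 and 31255 in wt and 52346 and 52565 in Top2β-null cells. Moves in the same direction were seen for Sema3b and Sema3f, 72.3 kb apart on chromosome 9 and both lower, and for Robo1 and Robo2, 846 kb apart on chromosome 16 and both higher.

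**Figure D4:**
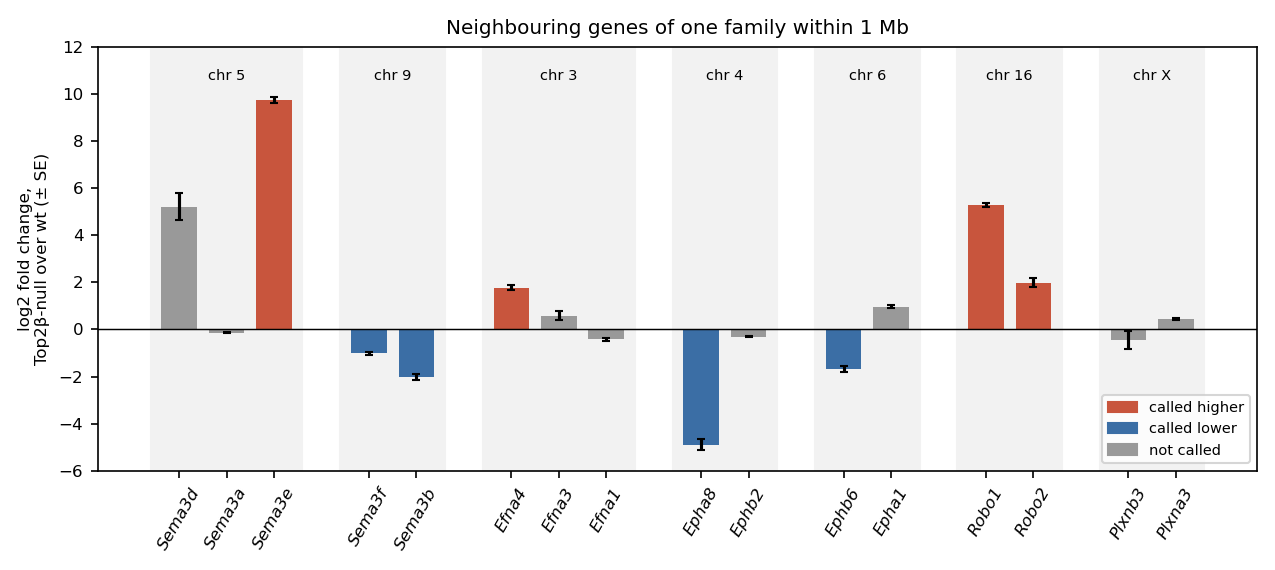
Bars show the log2 fold change (Top2β-null over wt) with its standard error for tested guidance genes of one family that lie within 1 Mb of each other, grouped by chromosome, with called genes in red (higher) or blue (lower) and others in grey. Sema3a lies near 0 between Sema3d and Sema3e, Ephb6 and Epha1 have opposite signs, and both Robo genes lie above 0.

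Many guidance genes are long, with 31 of the 67 spanning 100 kb or more. Of 20 such genes with a mean above 100, 12 were called, 9 higher and 3 lower. Of 26 shorter ones 9 were called (34.6%), 3 higher and 6 lower. Over all genes with a mean above 100 the shares were 26.0% of those of 100 kb or more, with 247 higher and 194 lower, and 15.1% of shorter genes, with 1136 higher and 1122 lower. Within each length class the share called was higher for the guidance genes than for all genes, and no test of this was made.

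Co-receptors and cues outside these families showed calls in both directions. The list of 22 genes, 16 of them tested, held 3 called higher and 3 called lower, 42.9% of the 14 with a mean above 100, where 16.2% of all such genes were called. An adjusted p below 0.05 was met by 8 higher (50%) and 6 lower (37.5%) of the 16, beside 32.5% of all features in each direction. The median log2 fold change was 0.243. Both VEGF receptors on it rose: Flt1 was at 395 and 411 in wt and 3484 and 3649 in Top2β-null (3.15 ± 0.0549), and Kdr, whose co-receptor is Nrp1, at 71.7 and 68.6 and at 203 and 205 (1.54 ± 0.154). Ntng2, a lipid-anchored netrin-G that does not bind the netrin receptors, rose from 10.1 and 6.76 to 286 and 274 (5.04 ± 0.226). L1cam, the adhesion molecule that joins Nrp1 in the Sema3a receptor, fell from 3774 and 3764 to 41.4 and 52.5 (-6.32 ± 0.0801), and its relative Nrcam, a partner of Nrp2, from 388 and 373 to 2.07 and 7.92 (-6.20 ± 0.248). Nrcam, counted among the 3 called lower, passed the low-count filter through wt cells alone, so it had to differ to be tested. Gpc1, a heparan sulphate proteoglycan that binds Slit proteins, fell from 25295 and 25537 to 11535 and 11655 (-1.13 ± 0.0245).

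Intracellular effectors of guidance receptors gave 8 calls. Of 38 listed, 37 were tested, and 3 were called higher and 5 lower, 23.5% of the 34 with a mean above 100 beside 16.2% of all such genes, with a median log2 fold change of -0.00017. An adjusted p below 0.05 was met by 15 higher (40.5%) and 16 lower (43.2%), beside 32.5% of all features in each direction. The 3 called higher were Crmp1, a mediator of Sema3a collapse, from 90.8 and 92.7 to 1133 and 1195 (3.66 ± 0.087), Srgap1, a GTPase-activating protein bound by Robo1, from 167 and 175 to 897 and 878 (2.38 ± 0.0804), and Enah, an actin regulator, from 3115 and 3000 to 14779 and 14320 (2.25 ± 0.0299). Lower were Ablim1, an actin-binding protein (-2.20 ± 0.0302), Rnd1 and Rras, GTPases that bind plexins (-2.02 ± 0.0328 and -1.09 ± 0.0511), Vav3, an exchange factor (-1.53 ± 0.115), and Dpysl3, a relative of Crmp1 (-1.30 ± 0.0247).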

How the data were processed

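Total RNA from MEF cells was sequenced in 2 wt and 2 Top2β-null libraries. Reads had been trimmed by the authors (Trim Galore!) and aligned to mm10 (STAR, multi-mapping reads kept). TEtranscripts then gave counts for Gencode genes and for repeat families of RepeatMasker, which were deposited as whole numbers without normalization. The mode and strand setting of the counting are not given in the sources used here, although the library kit was stranded. Groups and replicate numbers were taken from the labels. Symbols, positions and exon lengths come from GENCODE M21 (GRCm38), and levels per kb are normalized counts divided by the length of all exons of a gene.

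The members, the 2 lists outside the rule, the 6 marker lists and the tests were chosen with earlier results of these data known. The 58 tested members, like all 26566 features tested, had at least 10 counts in at least 2 libraries. Counts were fitted in R 4.3.3 with edgeR 4.0.16 (quasi-likelihood test, TMM factors over genes and repeats together, genotype as the only term) and adjusted by Benjamini-Hochberg. The cut-offs for a call are those of the study's methods, applied there to DESeq2. Standard errors were taken as the size of the log2 fold change over the square root of F. Normalized counts are counts per geometric mean of effective library sizes. With 2 against 2 libraries the smallest exact permutation p is 0.33, so none was used. Intervals for low counts are exact (Clopper-Pearson, 95%) and cover counting error only. The counts per library summed to 133116830 to 149647278.

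Named with values are the called members, those with a mean of 100 or less that passed the p and fold cut-offs, those at the floor of 3 counts in 1 genotype, the 10 with the highest level per kb, their receptor partners, and Dcc, Neo1 and the called genes of the other lists. Epha1, Sema4c and Epha10 were named after their values were seen. The spread between replicates exceeded counting noise in both genotypes (chi-square over its degrees of freedom, 3.65 for wt and 5.07 for Top2β-null). Same-numbered libraries did not deviate together (correlation 0.0207 over 17952 features), so the numbers do not pair them. The alternatives were DESeq2 1.42.0, other scalings, other filters, the replicate block, an adjusted p alone and each library left out.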

Additional observations from a re-analysis of the deposited data

How the results depend on the processing

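Of the 21 called guidance genes, 19 kept their call and direction under every alternative in which they could be fitted, and none reversed. With at least 100 counts required in every library, 7 were called higher and 5 lower, the median log2 fold change was 0.0912, and 1 partner gene was called in each direction; the 9 called genes lost there had under 100 counts in a library and were not fitted. When only the adjusted p was required to be below 0.05, the counts were 28 higher and 24 lower. Leaving out each library in turn moved the median between 0.00294 (without Top2β-null replicate 1) and 0.246, with 0.0282 without Top2β-null replicate 2. A fit with a library left out holds 1 library of a genotype, so its adjusted p does not measure the spread in that genotype. Calls kept or lost in these fits are to be read from the fold change and the mean. Plxnb2, not called, turned to 0.0364 when scaled by total count and ranged from -0.066 to 0.00665 with a library left out (positive without Top2β-null replicate 1), and Epha10, not called, ranged from -0.198 (without wt replicate 2) to 0.205. Sema3f lost its call in 3 alternatives and Robo2 in 2, as given above. Epha1 gained one with scaling to the total count (1.04) and without Top2β-null replicate 1 (1.04), and Sema4c without Top2β-null replicate 1 (1.00). The set of genes that could be fitted also differed between alternatives, and the causes of these changes in median and sign were not tested. The replicate block, which the libraries do not support as a pairing, gave 12 higher, 9 lower and a median of 0.216, and changed no call. No alternative scaling moved the median of all features by over 0.1. Sema3e, Sema3d, Epha3 and Sema6d could not be fitted without either Top2β-null library, nor Sema4f without either wt library. Genes under the filter of 10 counts in 2 libraries have counting intervals alone.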
